A study of Mus musculus with 60 samples.

Results

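The comparison described here sets clozapine against its solvent in mouse embryonic stem cells, on 6 of the 60 arrays of a larger set. Its members are the 3 arrays of cells given 0.028 mM clozapine and the 3 arrays of cells given DMSO alone, chosen by the treatment in the labels. On these arrays the 21789 probe sets with a single gene symbol, of 35556 in the table, were tested, and they stand for 19938 symbols. Cells of both groups were of R1, an established mouse embryonic stem cell line cultured on feeder cells, separated from the feeders before the experiment and treated for 6 h while undifferentiated, in complete stem cell medium with 0.1% DMSO. The clozapine dose was the one that lowered cell viability by 10% in a separate assay of longer exposure, and the labels class the drug as a non-teratogen. The other 54 arrays hold 18 further compounds with 3 arrays each, and they entered the model as a shared source of spread and as a second reference. R1 is a single line, and the arrays of a group are called triplicates without saying whether they came from separate cultures. The p-values therefore measure only the spread between arrays within groups, pooled over all 60 arrays.

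Clozapine is a tricyclic antipsychotic with a basic piperazine group that binds many receptors of dopamine, serotonin, histamine, acetylcholine and noradrenaline. Cells control their sterols by feedback: when sterol in the endoplasmic reticulum is low, INSIG proteins release the SREBP precursors, which move to the Golgi, are cut, and switch on the genes of cholesterol synthesis and fatty acid desaturation. Basic lipophilic drugs of this kind are known to gather in lysosomes, and lysosomal genes are switched on by TFEB and TFE3, factors held in the cytosol by the Rag GTPases and folliculin while nutrients are plentiful.

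Values are log2 signals, so a difference of 1 is a change of 2-fold. The 6 arrays had medians of 7.62 to 7.67 and interquartile ranges of 3.11 to 3.28, and DMSO 2 and clozapine 2 had the highest median and the narrowest range of their groups. The root mean square difference between a clozapine and a DMSO array had a median of 0.142 over the pairs, against 0.145 between DMSO arrays and 0.141 between clozapine arrays, so the groups did not stand apart over all probe sets. Stem cell markers were high, with DMSO levels of 10.7 to 13.6 for the 8 markers where the median of all probe sets was 8.08. None of these 8 markers and none of 14 fibroblast markers, which would mark leftover feeders, passed the test. Only 1.31% of all probe sets did, so no call was to be expected among so few. The summed fibroblast list averaged 8.60 to 8.67 on the DMSO arrays and 8.61 to 8.64 on the clozapine arrays, so the ranges overlapped. A lower level in such bulk RNA cannot tell fewer cells of a type from less RNA per cell.

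Clozapine changed few genes, most of them upwards and by less than 2-fold. Of the 21789 probe sets, 285 passed an adjusted p of 0.05, which is 1.31%, with 239 that rose (1.10%) and 46 that fell (0.211%). The median change was 0.33 among those that rose and -0.30 among those that fell, against -0.010 over all probe sets tested. Only 1 probe set rose and 1 fell by 2-fold or more, and 28 rose and 7 fell by at least 0.5. On all 285 the clozapine and DMSO arrays did not overlap, whereas this held for 10.1% of all probe sets upwards and 7.07% downwards. By number of calls clozapine ranked 10 of 19 compounds, between hydrochlorothiazide with 473 and ondansetron with 72. The number of calls was lower whichever array was left out. It was 149, 217 and 169 without clozapine 1, 2 and 3, and 174, 140 and 196 without DMSO 1, 2 and 3. A model of the 6 arrays alone called 72, of which 71 were among the 285. After quantile normalisation of the deposited values the split was 302 up and 125 down, and with each array's interquartile range as a covariate it was 266 and 135.

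**Figure D1:**
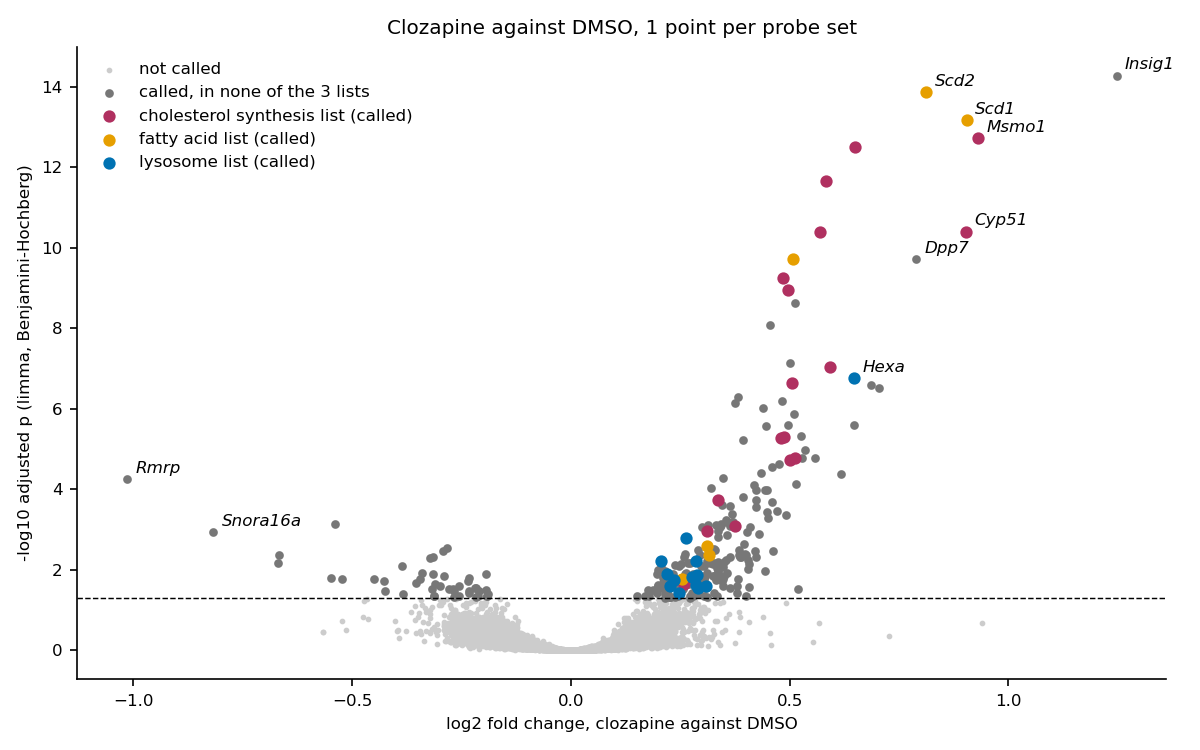
Each point is a probe set: its log2 fold change between clozapine and DMSO (x axis) against -log10 of its adjusted p (y axis), with called members of 3 gene lists in colour and the threshold of 0.05 as a dashed line. Cholesterol synthesis and desaturase genes fill the upper right, with Insig1 at 1.25, while Rmrp at -1.02 stands alone on the left.

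The genes of cholesterol synthesis rose nearly as a whole. Of 20 listed, 17 were measured, 15 of the 17 rose and none fell, where 1.15% of all genes taken at 1 probe set each rose. The median of the 17 was 0.49, against -0.009 over all genes. In all 17 every clozapine array lay above every DMSO array, which held for 10.1% of all probe sets. Against the mean of the other 18 compounds, 14 of the 17 were also higher, where 1.17% of genes were. That mean hides differences between compounds. Against DMSO, dexamethasone had 0.84 for Msmo1 and 0.62 for Nsdhl, whereas hydrochlorothiazide had -0.29 for Msmo1.

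In the early, sterol-free steps the changes were moderate. Hmgcs1, which makes the HMG-CoA that feeds the pathway, measured 11.14, 11.20 and 11.22 on the DMSO arrays and 11.66, 11.71 and 11.68 on the clozapine arrays, and its difference was 0.50 ± 0.051 (adjusted p = 1.1e-09). The mevalonate steps followed, with 0.31 (adjusted p = 0.00109) for the mevalonate kinase Mvk and 0.38 (adjusted p = 0.000797) for the decarboxylase Mvd. Pmvk, the kinase between them, had 0.19 with an adjusted p of 0.314 and was one of the list's members that did not pass. Idi1, which isomerises the first isoprenoid unit, rose by 0.49 ± 0.069 (adjusted p = 5.15e-06), and Fdps, which joins such units into farnesyl diphosphate, rose by 0.34 ± 0.058 (adjusted p = 0.00019). In each of these enzymes the lowest clozapine array was above the highest DMSO array.

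Squalene synthesis and closure of the sterol ring came next. Fdft1, the squalene synthase, had 2 probe sets, and both rose, by 0.65 and 0.58. The brighter of them measured 11.84, 11.73 and 11.83 on the DMSO arrays and 12.36, 12.33 and 12.47 on the clozapine arrays. Sqle, the squalene epoxidase, rose by 0.48 ± 0.048 (adjusted p = 5.63e-10), and Lss, which closes the ring to lanosterol, by 0.59 ± 0.071 (adjusted p = 8.96e-08). All these enzymes were also above the mean of the other compounds, Sqle by 0.43 (adjusted p = 9.95e-13) and Lss by 0.40 (adjusted p = 4.16e-07).

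The enzymes that trim lanosterol towards cholesterol held the largest changes of the pathway. Msmo1, the oxidase of the methyl groups at carbon 4 of the ring, measured 10.31, 10.24 and 10.35 on the DMSO arrays and 11.22, 11.20 and 11.28 on the clozapine arrays, a rise of 0.93 ± 0.072 (adjusted p = 1.88e-13) or 1.91-fold. Cyp51, the lanosterol demethylase, measured 8.65, 8.56 and 8.85 on the DMSO arrays and 9.64, 9.48 and 9.65 on the clozapine arrays, a rise of 0.90 ± 0.082 (adjusted p = 4.02e-11) or 1.87-fold. For both genes the gap between the groups was larger than the range within either. Nsdhl and Hsd17b7, which act with Msmo1 in the same demethylation, rose by 0.57 ± 0.052 (adjusted p = 4.02e-11) and 0.51 ± 0.063 (adjusted p = 2.24e-07). The later enzymes Sc5d and Dhcr7, which shape the last double bonds, rose by 0.48 ± 0.069 (adjusted p = 5.46e-06) and 0.51 ± 0.077 (adjusted p = 1.68e-05), and the isomerase Ebp by 0.26 ± 0.064 (adjusted p = 0.0224). Tm7sf2, a sterol reductase, had 0.30 with an adjusted p of 0.109 and did not pass, although its clozapine arrays (8.32, 8.34 and 8.33) lay above its DMSO arrays (7.94, 8.04 and 8.12). Ebp did not differ from the mean of the other compounds at 0.11 (adjusted p = 0.315), and its call against DMSO was lost in 4 of the 6 analyses that left out an array, with an adjusted p of 0.265 without DMSO 2. Between 14 and 15 of the 17 genes rose whichever of the 6 arrays was left out, and 11 did so in the model of the 6 arrays alone.

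**Figure D2:**
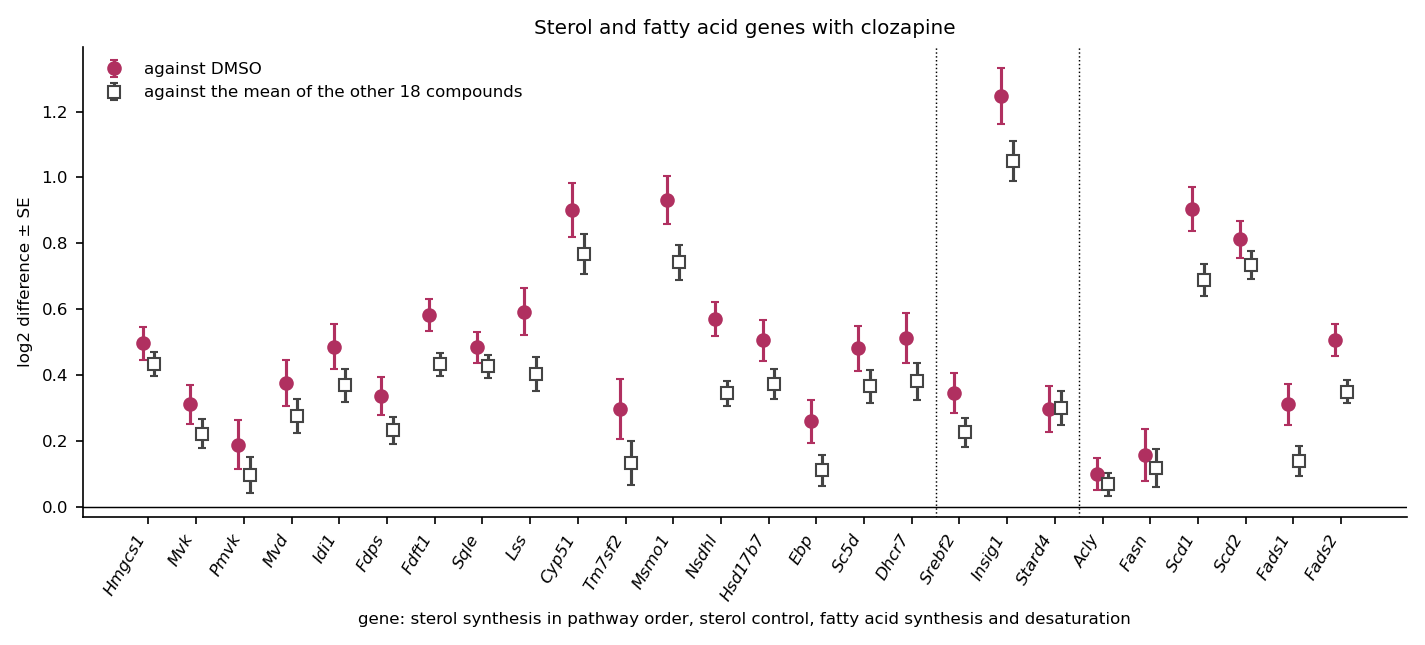
Log2 difference ± SE for sterol synthesis genes in pathway order, for sterol control genes and for fatty acid genes, with clozapine against DMSO as filled circles and clozapine against the mean of the other 18 compounds as open squares; a gene with several probe sets is shown by the brightest. Msmo1 and Cyp51 lead the synthesis genes, Insig1 exceeds them all, and Acly and Fasn lie near the bottom while Scd1 and Scd2 reach 0.91 and 0.81.

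Among 16 measured genes that sense, move or export sterol, 3 rose, where 1.15% of all genes did. Insig1, the endoplasmic reticulum protein that holds back SREBP and is itself a target of it, showed the largest rise of all 21789 probe sets. It measured 9.95, 9.76 and 9.98 on the DMSO arrays and 11.19, 11.15 and 11.08 on the clozapine arrays, so every clozapine array was more than 1 log2 unit above every DMSO array. The rise was 1.25 ± 0.084 (adjusted p = 5.38e-15), or 2.37-fold, and the difference from the other compounds was 1.05 (adjusted p = 7.24e-18). Srebf2, which encodes the sterol-responsive SREBP itself, rose by 0.35 ± 0.060 (adjusted p = 0.000248), and the sterol carrier Stard4 by 0.30 ± 0.070 (adjusted p = 0.0142). These were the 3 members that rose among 16 measured, with a list median of 0.039. The Stard4 call was lost in 3 of the 6 analyses that left out an array, with an adjusted p of 0.132 without DMSO 1.

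The remaining 13 sterol control genes did not pass. Srebf1, the relative of Srebf2 that favours fatty acid genes, had 0.16 (adjusted p = 0.591). For the lysosomal cholesterol exporter Npc1 the change was 0.090 (adjusted p = 0.707), and for its soluble partner Npc2 0.22 (adjusted p = 0.17). The cholesterol efflux pump Abca1, a target of oxysterol receptors, had -0.12 (adjusted p = 0.689), and Insig2 had -0.059 (adjusted p = 0.859).

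Promoters of 3 of these genes are shown because they carry letters searched for on both strands: the core of the sterol regulatory element (CACCCCAC), the E-box (CACGTG) and the CCAAT box (CCAAT). Sequences are the 250 bases before the start of the gene, 5′ to 3′ in its direction, from RefSeq on GRCm38.p6, and capitals mark the matches, with CCAAT written as ATTGG where it lies on the opposite strand.
Hmgcs1, chr13:119690101-119690350, plus strand: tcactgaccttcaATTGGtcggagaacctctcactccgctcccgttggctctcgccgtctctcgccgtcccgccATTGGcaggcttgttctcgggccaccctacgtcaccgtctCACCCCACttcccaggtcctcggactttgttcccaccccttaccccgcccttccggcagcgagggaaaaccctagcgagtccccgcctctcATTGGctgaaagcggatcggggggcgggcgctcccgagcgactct
Msmo1, chr8:64733579-64733828, minus strand: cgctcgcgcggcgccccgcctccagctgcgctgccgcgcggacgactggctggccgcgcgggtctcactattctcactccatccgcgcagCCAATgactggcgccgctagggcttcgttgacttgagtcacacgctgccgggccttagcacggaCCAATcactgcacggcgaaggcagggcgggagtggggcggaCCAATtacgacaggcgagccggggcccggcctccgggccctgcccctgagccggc
Insig1, chr5:28071162-28071411, plus strand: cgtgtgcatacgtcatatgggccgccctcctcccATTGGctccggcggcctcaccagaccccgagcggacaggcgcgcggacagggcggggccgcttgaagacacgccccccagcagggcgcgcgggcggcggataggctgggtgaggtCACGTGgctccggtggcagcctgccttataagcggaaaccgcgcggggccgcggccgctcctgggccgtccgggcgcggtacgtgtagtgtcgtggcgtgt
Capitals in Hmgcs1 mark 1 sterol element core and 3 CCAAT boxes, in Msmo1 they mark 3 CCAAT boxes, and in Insig1 an E-box and a CCAAT box.

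The CCAAT box stood in 11 of the 12 promoters found for the cholesterol synthesis genes that rose (91.7%), and in 34.5% of all 27025 promoters of the table. The exact sterol element core was in 1 of the 12 (Hmgcs1), against 2.51% of all promoters. Of the 233 symbols that rose, 191 had a promoter in the table, and the CCAAT box was in 36.6% of those, close to its share of all promoters. A match describes letters in a window and not a bound site.

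Most of the fatty acid genes that rose, 4 of 6, were desaturases. Scd1 and Scd2, which place a double bond in stearoyl-CoA, were among the 5 largest rises that were called. Scd1 measured 9.88, 9.73 and 9.94 on the DMSO arrays and 10.77, 10.66 and 10.84 on the clozapine arrays, a rise of 0.91 ± 0.067 (adjusted p = 6.78e-14). Scd2 measured 11.11, 11.05 and 11.08 on the DMSO arrays and 11.92, 11.88 and 11.88 on the clozapine arrays, a rise of 0.81 ± 0.057 (adjusted p = 1.38e-14), with both groups tightly spaced. Fads2, the first desaturase of polyunsaturated fatty acids, rose by 0.51 ± 0.049 (adjusted p = 1.9e-10), and Fads1, the next, by 0.31 ± 0.063 (adjusted p = 0.00256). Lpin1, a phosphatidate phosphatase of triglyceride synthesis, rose by 0.32 ± 0.067 (adjusted p = 0.00427), and Aacs, which activates acetoacetate for lipid synthesis, by 0.25 ± 0.061 (adjusted p = 0.0169).

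These 6 were the members that rose among 18 measured, none fell, and the list median was 0.17, where 1.15% of all genes rose. For the fatty acid synthase Fasn the change was 0.16 (adjusted p = 0.526), and for the citrate lyase Acly it was 0.099 (adjusted p = 0.489). Against the other compounds Scd1, Scd2, Fads2 and Aacs were higher, by 0.69, 0.74, 0.35 and 0.25, whereas Fads1 at 0.14 (adjusted p = 0.123) and Lpin1 at 0.11 (adjusted p = 0.351) were not called. In the model of the 6 arrays alone 3 members rose. The Lpin1 and Aacs calls were lost in 2 and 4 of the 6 analyses that left out an array, with adjusted p of up to 0.057 (without DMSO 2) and 0.126 (without DMSO 1).

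Further lipid genes among the calls were noted after their values were seen, and they are given as values. Rdh11, a retinol dehydrogenase, measured 9.46, 9.43 and 9.63 on the DMSO arrays and 10.15, 10.07 and 10.25 on the clozapine arrays, a rise of 0.65 ± 0.089 (adjusted p = 2.47e-06). Fabp3, a fatty acid carrier with 2 probe sets that both rose, reached 0.51 ± 0.054 (adjusted p = 2.37e-09) on the brighter. Idh1, a cytosolic source of NADPH, rose by 0.43 ± 0.083 (adjusted p = 0.00129), Pcyt2 of phosphatidylethanolamine synthesis by 0.42 ± 0.074 (adjusted p = 0.000274) and the lipase Lipg by 0.50 ± 0.068 (adjusted p = 2.47e-06). For lipoprotein handling, the lipoprotein receptor Lrp8 rose by 0.42 ± 0.068 (adjusted p = 8.03e-05) and Apoe by 0.39 ± 0.056 (adjusted p = 5.81e-06). Of the 14 lipid genes noted in this way 13 were also higher than the mean of the other compounds, by up to 0.46 for Rdh11. Of all rises with clozapine 61.9% were. Mfsd2a, a carrier of lysophospholipids, was not called against the other compounds at 0.15 (adjusted p = 0.0536). The rise of Mfsd2a against DMSO, 0.22 ± 0.057 (adjusted p = 0.0273), was lost in 5 of the 6 analyses that left out an array, with an adjusted p of up to 0.238 without DMSO 1.

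**Figure D3:**
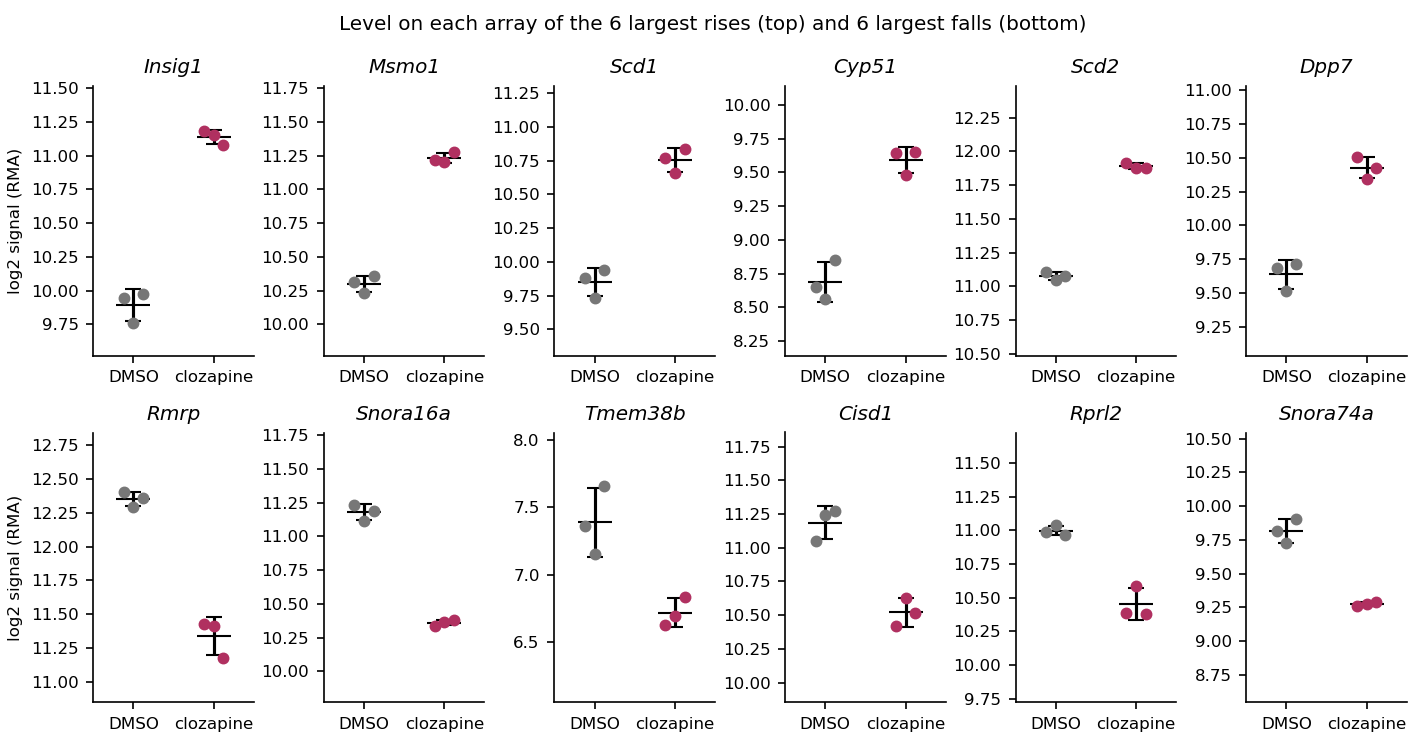
Log2 signal on each of the 3 DMSO arrays (grey) and 3 clozapine arrays (red) for the 6 largest rises (top) and the 6 largest falls (bottom); bars give the mean and SD, and every panel spans the same 2 log2 units. The groups do not overlap in any panel, and Tmem38b has the widest DMSO spread, from 7.15 to 7.66.

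Lysosomal genes rose in number, by smaller amounts. Of 20 measured members of the list of lysosomal hydrolases, membrane proteins and proton pump subunits, 13 rose and none fell, with a median of 0.23, where 1.15% of all genes rose. The rest of the series showed part of this: only 4 of the 20 (Hexa, Ctsa, Atp6v0d1 and Ctsd) were above the mean of the other compounds, where 1.17% of all genes were. The count of 13 was lower whichever array was left out. It was 5, 9 and 4 without clozapine 1, 2 and 3, and 7, 5 and 10 without DMSO 1, 2 and 3. In the model of the 6 arrays alone it was 1.

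Hexa, a subunit of the hexosaminidase that breaks down gangliosides, led the list. It measured 9.64, 9.60 and 9.70 on the DMSO arrays and 10.30, 10.22 and 10.37 on the clozapine arrays, a rise of 0.65 ± 0.079 (adjusted p = 1.73e-07), and was 0.54 (adjusted p = 2.96e-09) above the other compounds. The gap between its groups was larger than the range within either, and its call held in each analysis that left out an array. Next were the acid ceramidase Asah1 at 0.31 ± 0.078 (adjusted p = 0.0251), Cln3 at 0.29 ± 0.074 (adjusted p = 0.0277) and the membrane protein Lamp2 at 0.29 ± 0.068 (adjusted p = 0.0132). The hydrolases Ctsa, Neu1, Ctsd, Ctsb and Ctsl rose by 0.29, 0.28, 0.25, 0.24 and 0.21. Mcoln1, the calcium channel of the lysosomal membrane, rose by 0.29 ± 0.072 (adjusted p = 0.024). In the proton pump that acidifies the lumen, Atp6v0d1 rose by 0.26 ± 0.052 (adjusted p = 0.00165), Atp6v1a by 0.23 ± 0.057 (adjusted p = 0.0253) and Atp6v0a1 by 0.22 ± 0.051 (adjusted p = 0.0125).

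Most of these smaller calls did not hold in every analysis that left out an array. Those of Cln3, Mcoln1 and Ctsd were lost whichever of the 6 arrays was left out, with adjusted p of up to 0.139, 0.125 and 0.19, each without clozapine 3. The changes themselves moved little in those analyses, from 0.28 to 0.30 for Cln3, 0.27 to 0.30 for Mcoln1 and 0.23 to 0.26 for Ctsd. Asah1, Lamp2, Neu1, Ctsb, Atp6v1a and Atp6v0a1 were lost in 2 to 5 of those analyses. Ctsa, Atp6v0d1 and Ctsl held in each, with adjusted p of up to 0.048, 0.0384 and 0.0484. The members that did not pass included Lamp1 at 0.11 (adjusted p = 0.549), Gla at 0.097 (adjusted p = 0.73) and Lipa at -0.019 (adjusted p = 0.982).

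Other genes, most of them of lysosomes, were singled out after their values were seen. All 22 rose, and 13 were also above the other compounds, where 61.9% of all rises were. These counts include Renbp, the epimerase of amino sugars described further below. The dipeptidyl peptidase Dpp7 measured 9.68, 9.51 and 9.72 on the DMSO arrays and 10.51, 10.35 and 10.43 on the clozapine arrays and rose by 0.79 ± 0.076 (adjusted p = 1.9e-10), the sixth largest among the calls, with 0.68 (adjusted p = 7.2e-13) against the other compounds. Grn, which encodes the lysosomal protein progranulin, measured 11.16, 11.16 and 11.21 on the DMSO arrays and 11.60, 11.67 and 11.59 on the clozapine arrays and rose by 0.44 ± 0.058 (adjusted p = 9.58e-07). Clcn6, a chloride-proton exchanger of late endosomes, rose by 0.53 ± 0.079 (adjusted p = 1.06e-05), the peptidase Tpp1 by 0.42 ± 0.091 (adjusted p = 0.00493), the cystine transporter Ctns by 0.44 ± 0.073 (adjusted p = 0.000102) and the glycogen-degrading Gaa by 0.42 ± 0.087 (adjusted p = 0.0034). Against the other compounds Dpp7, Grn, Clcn6 and Tpp1 were higher, while Ctns at 0.15 (adjusted p = 0.181) and Gaa at 0.20 (adjusted p = 0.114) were not called. The Tpp1 call was lost without DMSO 2, at an adjusted p of 0.0512.

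The promoters of 3 lysosomal genes that rose hold the CLEAR element (TCACGTGA, which contains the E-box and reads the same on both strands), the element TFEB and TFE3 are known to bind. The 250 bases before each start are shown from RefSeq on GRCm38.p6 in the gene's direction, with that element in capitals.
Ctsd, chr7:142387828-142388077, minus strand: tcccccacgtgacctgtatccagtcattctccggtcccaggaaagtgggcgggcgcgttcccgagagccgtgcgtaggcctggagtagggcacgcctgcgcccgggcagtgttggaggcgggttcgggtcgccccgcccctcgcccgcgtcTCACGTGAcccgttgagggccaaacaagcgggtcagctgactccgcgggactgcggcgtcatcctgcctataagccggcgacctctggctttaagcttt
Mcoln1, chr8:3500269-3500518, plus strand: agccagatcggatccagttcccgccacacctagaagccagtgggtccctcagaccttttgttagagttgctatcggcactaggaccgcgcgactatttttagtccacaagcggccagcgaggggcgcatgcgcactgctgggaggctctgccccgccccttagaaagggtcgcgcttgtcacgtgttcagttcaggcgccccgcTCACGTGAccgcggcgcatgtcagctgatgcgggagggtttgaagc
Atp6v1a, chr16:44139260-44139509, minus strand: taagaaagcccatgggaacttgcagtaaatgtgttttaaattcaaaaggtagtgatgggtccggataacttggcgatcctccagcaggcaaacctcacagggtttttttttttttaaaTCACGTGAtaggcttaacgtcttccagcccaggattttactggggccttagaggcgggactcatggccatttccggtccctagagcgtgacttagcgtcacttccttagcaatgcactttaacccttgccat
They were 3 of the 11 lysosomal genes that rose and have a promoter in the table (27.3%), against 0.803% of all promoters. The calls of Ctsd and Mcoln1 were lost in all 6 analyses that left out an array, and that of Atp6v1a in 5. The promoters of Hexa, Atp6v0d1 and Ctsl, whose calls held in each of those analyses, had no CLEAR element. Its share among list members that did not rise was not computed, and a link between the element and the rises was not tested. Among the 191 promoters of all genes that rose, 14 held the CLEAR element (7.33%) and 44 the E-box (23.0%). In the promoters of the genes tested the shares were 1.10% for the CLEAR element and 7.03% for the E-box, and the E-box was in 6.05% of all promoters.

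Regulators of TFEB were among the calls. In the list of autophagy and TFEB signalling 5 of 19 genes rose, with a median of 0.10, and 7 were higher than with the other compounds, where 1.15% and 1.17% of all genes did so. Fnip1 and Flcn, the folliculin complex that acts on Rag GTPases, rose by 0.38 ± 0.071 (adjusted p = 0.000856) and 0.25 ± 0.064 (adjusted p = 0.0256). Rragc, a Rag GTPase, measured 9.93, 9.72 and 10.00 on the DMSO arrays and 10.29, 10.23 and 10.27 on the clozapine arrays and rose by 0.38 ± 0.070 (adjusted p = 0.000799). Sqstm1, the p62 cargo receptor of autophagy, rose by 0.21 ± 0.047 (adjusted p = 0.00854), and Uvrag, a factor of autophagosome maturation, by 0.30 ± 0.062 (adjusted p = 0.00424). None of the promoters of these 5 genes held the CLEAR element, and 2 held the E-box. Tfeb itself had 0.13 (adjusted p = 0.506) against DMSO but was 0.22 (adjusted p = 0.00247) above the other compounds, and Tfe3 had -0.057 (adjusted p = 0.84). Without clozapine 3, or without DMSO 2, 2 of the list's genes rose, and in the model of the 6 arrays alone none did. The Flcn call was lost whichever array was left out, with an adjusted p of up to 0.146 without clozapine 3, and those of Uvrag and Sqstm1 in 2 of the 6 analyses each.

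Genes of the amino acid response, in which phosphorylated eIF2α favours translation of ATF4, rose in a small part. Of 20 measured ATF4 and CHOP genes 3 rose, where 1.15% of all genes did, and the list median was 0.11. Chac1, a glutathione-degrading enzyme, measured 8.99, 9.25 and 9.07 on the DMSO arrays and 9.59, 9.66 and 9.61 on the clozapine arrays and rose by 0.52 ± 0.084 (adjusted p = 7.46e-05). The glycoprotein Stc2 rose by 0.32 ± 0.053 (adjusted p = 9.05e-05), and Atf4 itself by 0.26 ± 0.061 (adjusted p = 0.0122), with clozapine arrays above DMSO arrays in both. Ddit3, which encodes CHOP, had 0.18 (adjusted p = 0.543), and Trib3, an inhibitor in the same response, 0.21 (adjusted p = 0.145). None of the 20 was above the other compounds, where Chac1 had 0.026 (adjusted p = 0.961). The Atf4 call was lost without clozapine 3 and without DMSO 1, at adjusted p of up to 0.0816.

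Of the amino acid genes, 3 of 11 transporters and 1 of 11 synthesis enzymes rose, where 1.15% of all genes did. Among 11 transporters Slc1a4 rose by 0.36 ± 0.066 (adjusted p = 0.000643), the glycine carrier Slc6a9 by 0.33 ± 0.081 (adjusted p = 0.0181) and the glutamine carrier Slc1a5 by 0.26 ± 0.055 (adjusted p = 0.00485), and none of the 11 was called against the other compounds. The cystine carrier Slc7a11 had 0.10 (adjusted p = 0.81). Of 11 synthesis enzymes only the serine hydroxymethyltransferase Shmt2 rose, by 0.20 ± 0.050 (adjusted p = 0.0233), and the asparagine synthetase Asns had 0.17 (adjusted p = 0.0631). None of 18 tRNA synthetases passed, with a median of 0.076 and Mars1 the largest at 0.17 (adjusted p = 0.127). None of 21 chaperones and genes of the unfolded protein response did so either, with -0.009 (adjusted p = 0.989) for Hspa5, the main chaperone of the endoplasmic reticulum, and 0.23 (adjusted p = 0.278) for Derl3, the largest. The Slc6a9 and Shmt2 calls were lost in 5 and 4 of the 6 analyses that left out an array, and that of Slc1a5 without clozapine 3, with adjusted p of up to 0.112 (without clozapine 1), 0.163 (without clozapine 3) and 0.066.

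In 3 other lists a pair of genes each rose, where 1.15% of all genes did. Among 21 oxidative stress targets of NRF2, the haem oxygenase Hmox1 rose by 0.34 ± 0.065 (adjusted p = 0.00109) and Pgd of the pentose phosphate pathway by 0.20 ± 0.046 (adjusted p = 0.0124). Among 21 immediate early genes, Zfp36, which destabilises mRNAs, rose by 0.33 ± 0.075 (adjusted p = 0.0092) and the phosphatase Dusp1 by 0.28 ± 0.073 (adjusted p = 0.0376). These 4 were not called against the other compounds. Among 25 pluripotency genes, with a median of 0.001, the factors Esrrb and Klf2 of the naive state rose. Esrrb measured 11.77, 11.70 and 11.71 on the DMSO arrays and 12.04, 12.01 and 12.05 on the clozapine arrays and Klf2 10.86, 10.79 and 10.86 on the DMSO arrays and 11.13, 11.13 and 11.16 on the clozapine arrays, with rises of 0.31 ± 0.073 (adjusted p = 0.0142) and 0.31 ± 0.072 (adjusted p = 0.0142). Both were above the other compounds as well, by 0.24 (adjusted p = 0.00501) and 0.22 (adjusted p = 0.0128). Without clozapine 1, clozapine 3 or DMSO 2 neither pluripotency call held, with adjusted p of up to 0.0872 and 0.111 (without DMSO 2), and those of Dusp1, Zfp36 and Pgd were lost in 6, 2 and 4 of the 6 analyses.

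**Figure D4:**
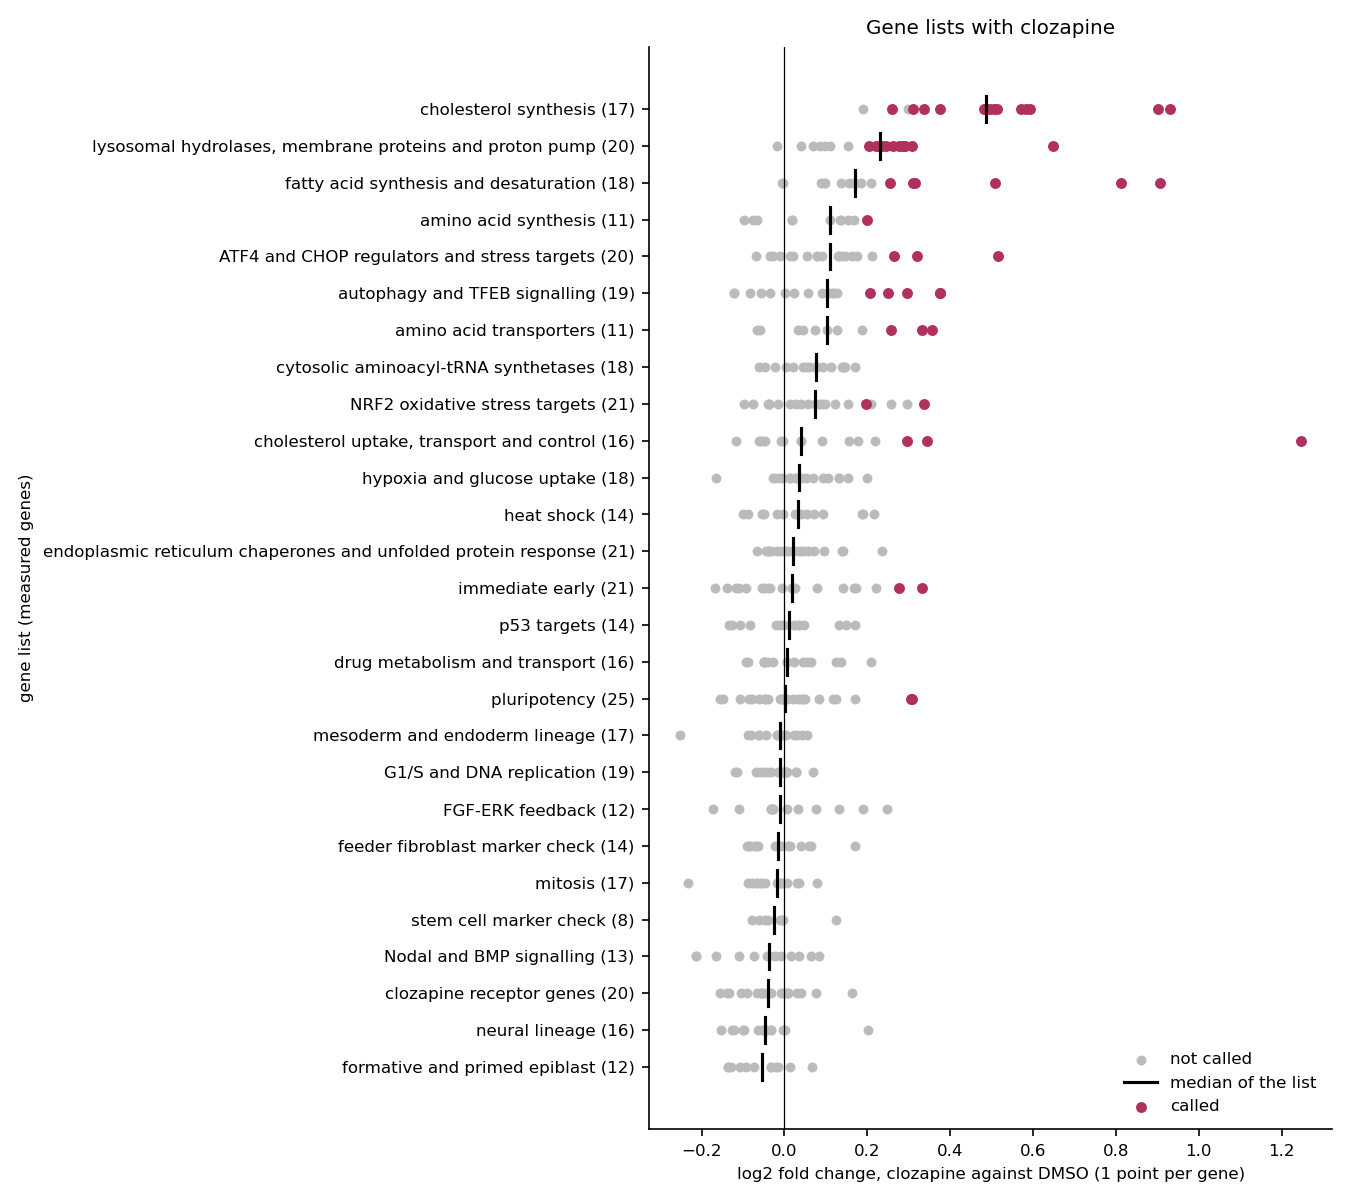
Each point is a gene: its log2 fold change between clozapine and DMSO (x axis), by gene list (y axis, with the number of genes measured), in red where it passed an adjusted p of 0.05, and a bar at the median of the list. Cholesterol synthesis stands furthest to the right with a median of 0.49, followed by the lysosomal list at 0.23 and the fatty acid list at 0.17, and 16 lists have no red point.

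No member of any list fell among the 440 genes measured, but only 0.196% of all genes did, so few falls were to be expected. Where 1.15% of all genes rose and 0.196% fell, 16 of the 27 lists had no member that passed in either direction. Those covered heat shock, hypoxia, p53 targets, mitosis, replication, drug metabolism, FGF, Nodal and BMP signalling, and the lineage lists. Among 17 mesoderm and endoderm genes the largest difference was Evx1 at -0.25 (adjusted p = 0.294), among 16 neural genes Map2 at 0.20 (adjusted p = 0.217), and among 12 formative and primed epiblast genes Lef1 at -0.14 (adjusted p = 0.388). In the FGF-ERK list Dusp4 and Spry4 had 0.25 (adjusted p = 0.0676) and 0.19 (adjusted p = 0.261) against DMSO, although both were above the other compounds, by 0.27 (adjusted p = 0.00108) and 0.26 (adjusted p = 0.00164). Lefty2 and Id3, readouts of Nodal and BMP signalling, had -0.21 (adjusted p = 0.319) and -0.21 (adjusted p = 0.528). The mitotic gene Cenpf had -0.23 (adjusted p = 0.205).

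The receptors through which clozapine acts in the brain gave no call among 20 measured. Of all genes 1.15% rose and 0.196% fell, so no call was to be expected among so few. The list was also dim, with a median DMSO level of 6.955 against 8.083 over all probe sets. Drd2 had a mean DMSO level of 6.80 and a change of 0.008 (adjusted p = 0.994), Hrh1 7.93 and 0.008 (adjusted p = 0.992), and Htr2a 8.03 and 0.16 (adjusted p = 0.546). Drd3 had the largest difference downwards, -0.16 (adjusted p = 0.589). Of the cytochromes that metabolise the drug or respond to aryl hydrocarbons, Cyp1a2 had 0.21 (adjusted p = 0.566) and Cyp1a1 0.064 (adjusted p = 0.926). The drug metabolism and transport list had a median of 0.006 over 16 genes. The signs of Drd2, Hrh1, Cyp1a1 and Hspa5 turned when some single arrays were left out.

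The 2 largest falls were of the small non-coding RNAs Rmrp and Snora16a, and 6 of the 12 largest were of such RNAs, a class noted after the values were seen. By symbol the table held 71 probe sets of snoRNAs, small Cajal body RNAs, spliceosomal and other U RNAs, Y RNAs and the RNAs of RNase MRP and P, of which 6 fell, none rose and 43 had negative values, with a median of -0.051. Of all probe sets 0.211% fell. Rmrp, the RNA of the nuclease RNase MRP that processes ribosomal RNA, measured 12.40, 12.30 and 12.36 on the DMSO arrays and 11.43, 11.41 and 11.17 on the clozapine arrays, a fall of 1.02 on the log2 scale and the only one of 2-fold or more. Its change was -1.02 ± 0.16 (adjusted p = 5.52e-05), and against the other compounds -0.73 (adjusted p = 6.75e-05). Snora16a, a nucleolar RNA that guides pseudouridylation, measured 11.23, 11.12 and 11.19 on the DMSO arrays and 10.34, 10.36 and 10.38 on the clozapine arrays, with a change of -0.82 ± 0.16 (adjusted p = 0.00118). Snora74a, of the same class, measured 9.81, 9.73 and 9.91 on the DMSO arrays and 9.26, 9.28 and 9.29 on the clozapine arrays, with -0.54 ± 0.10 (adjusted p = 0.000733). All clozapine arrays lay below all DMSO arrays for these RNAs, their calls held without any single array, and both snoRNAs were also below the other compounds, by -0.55 (adjusted p = 0.00247) and -0.30 (adjusted p = 0.0143).

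RNase P, the related nuclease that trims transfer RNA, gave lower values too. Its RNA Rpph1 measured 13.40, 13.46 and 13.44 on the DMSO arrays and 12.95, 13.14 and 12.86 on the clozapine arrays, with a change of -0.45 ± 0.11 (adjusted p = 0.0172), and was -0.30 (adjusted p = 0.0326) against the other compounds. The similarly named Rprl1 and Rprl2, listed as RNase P RNA-like, changed by -0.52 ± 0.13 (adjusted p = 0.0169) and -0.55 ± 0.13 (adjusted p = 0.0159). Against the other compounds these 2 were not called, at -0.31 (adjusted p = 0.0737) and -0.32 (adjusted p = 0.0772). RNAs of like sequence may share signal between probes, which was not tested. The calls of Rpph1, Rprl1 and Rprl2 were lost in 5, 4 and 4 of the 6 analyses that left out an array, with adjusted p of up to 0.158 without clozapine 3 and 0.118 and 0.101 without clozapine 1.

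Among protein-coding genes the largest falls were Tmem38b and Cisd1. Tmem38b, a cation channel of the endoplasmic reticulum, measured 7.36, 7.15 and 7.66 on the DMSO arrays and 6.63, 6.70 and 6.83 on the clozapine arrays on the probe set that fell, a change of -0.67 ± 0.15 (adjusted p = 0.00684), whereas its other probe set had 0.11 (adjusted p = 0.723). Against the other compounds the probe set that fell was not called, at -0.33 (adjusted p = 0.115), and 4 of those compounds lowered it against DMSO. Cisd1, an iron-sulfur protein of the outer mitochondrial membrane, measured 11.05, 11.24 and 11.27 on the DMSO arrays and 10.42, 10.63 and 10.51 on the clozapine arrays, with -0.67 ± 0.14 (adjusted p = 0.00424) against DMSO and -0.42 (adjusted p = 0.014) against the other compounds. Chd7, a chromatin remodeller, was represented by 30 probe sets, of which 4 fell, and all 30 had negative values, from -0.52 to -0.004. The one named by the rule had -0.43 ± 0.11 (adjusted p = 0.033). The ligand Tnfsf18 had -0.43 ± 0.11 (adjusted p = 0.0195), Cdc42ep3, which binds CDC42, -0.39 ± 0.087 (adjusted p = 0.00817), and Fpr-rs6 -0.38 ± 0.10 (adjusted p = 0.0401). Tnfsf18 and Fpr-rs6 were dim, with mean DMSO levels of 6.47 and 4.63 where the lower quartile of all probe sets was 6.78. Of these calls Tmem38b was lost in 2 and Tnfsf18 and Cdc42ep3 in 3 of the 6 analyses that left out an array, with adjusted p of up to 0.11, 0.294 and 0.0943, each without DMSO 3. Chd7 and Fpr-rs6 were lost in 5, with up to 0.192 without clozapine 2 and 0.475 without DMSO 2.

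Set against the mean of the other 18 compounds, clozapine differed in 374 probe sets (1.72%), 256 higher (1.17%) and 118 lower (0.542%). This test uses no DMSO array but the same clozapine arrays, so its overlap with the calls against DMSO is not independent. Of the 239 rises against DMSO 148 were also higher here, which is 61.9% of the rises and 57.8% of the 256. Of the 46 falls 24 were also lower, 52.2% of the falls and 20.3% of the 118. The 5 most raised were Insig1, Cyp51, Msmo1, Scd2 and Dynap, and the 5 most lowered were Rmrp, Snora16a, Tnfsf18, Cmtm4 and Cisd1. Dynap measured 7.30, 7.50 and 7.58 on the DMSO arrays and 8.01, 7.87 and 7.90 on the clozapine arrays, with 0.46 ± 0.096 (adjusted p = 0.00334) against DMSO and 0.71 (adjusted p = 2.99e-10) against the other compounds, where 4 of them lowered it, and its call against DMSO was lost without DMSO 1 (adjusted p = 0.0689). Cmtm4 had -0.40 (adjusted p = 0.183) against DMSO and -0.43 (adjusted p = 0.00942) here, with a clozapine SD of 0.35. The count of 374 was 140, 195 and 188 without clozapine 1, 2 and 3.

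**Figure D5:**
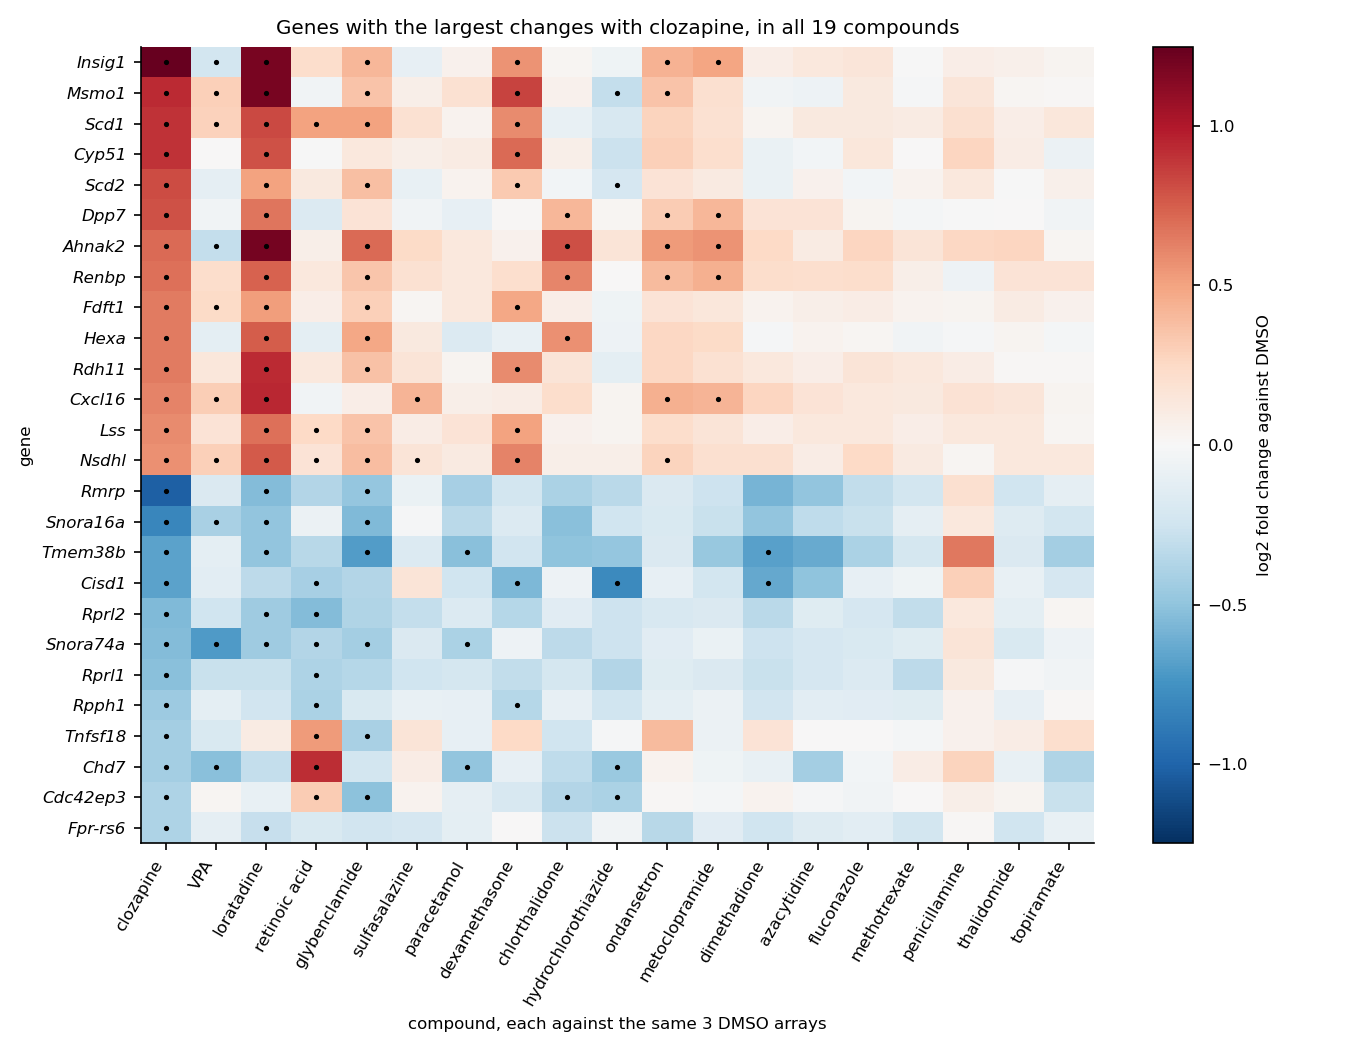
Log2 fold change against DMSO (colour) for the genes with the largest changes with clozapine (y axis) in all 19 compounds (x axis, clozapine first and then by number of calls), with a dot where the adjusted p was under 0.05. All columns share the same 3 DMSO arrays. Of the 14 rises 6, Insig1 among them, are highest with clozapine, and of the 12 falls 7, Rmrp among them, are lowest. The genes were picked for their change with clozapine, which favours clozapine in this ranking.

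Of the 14 largest rises, 6 had their highest value over the 19 compounds with clozapine (Insig1, Scd1, Cyp51, Scd2, Dpp7 and Fdft1), and of the 12 largest falls 7 had their lowest (Rmrp, Snora16a, Rprl2, Rprl1, Rpph1, Tnfsf18 and Fpr-rs6). Because these genes were picked for their change with clozapine, the choice itself favours clozapine in this ranking, and the counts are description only. Only 13 of the 239 rises were called up with no other compound. Loratadine, another tricyclic drug, was given at 0.043 mM and shares the DMSO arrays, so the values stand side by side without a comparison. Against DMSO the cholesterol synthesis list had a median of 0.62 with 17 of 17 raised under loratadine, and 0.49 with 15 raised under clozapine. Insig1 had 1.19 with loratadine and 1.25 with clozapine, and Scd2 0.51 and 0.81. For the lysosomal list the medians were 0.36 and 0.23. For the ATF4 and CHOP list they were 0.34 and 0.11, with 1.55 and 0.52 for Chac1 and 1.58 and 0.18 for Ddit3. Dynap had -0.24 with loratadine and 0.46 with clozapine.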

How the data were processed

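Each probe set has 1 deposited log2 signal per array, which the authors computed with RMA per the submitters' processing notes. Version and options of RMA, genome build and batches: not given in the sources used here. Arrays have no read depth, and 3 per group limit the precision. The values were used as deposited. A linear model with 1 mean per group was fitted to all 60 arrays (limma 3.58.1, lmFit and eBayes, R 4.3.3, 40 residual and 7.31 prior degrees of freedom), with Benjamini-Hochberg adjustment over 21789 probe sets and a call at an adjusted p under 0.05. On simulated data, 94% of changes of 0.5 and 100% of changes of 1.0 on the log2 scale were recovered in this comparison of 21789 probe sets, with 7 false calls. The simulated noise was independent between values, with no difference shared across an array. Changes below 0.5, the size of most calls, were not simulated. Of the 35556 probe sets, 1621 with several symbols and 12146 without one were left out of the comparisons. Of those tested, 21698 matched a RefSeq gene by Entrez identifier.

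Lists use the brightest probe set per gene. Members, lists and tests were chosen with earlier results of these data known. Genes named are the 14 largest rises and 12 largest falls among calls without overlap, the 4 largest called members of each list (or the 2 largest where none was called) with others of the sterol, fatty acid, amino acid, lysosome and autophagy lists needed to order them by role, the genes expected from the drug's pharmacology, and the 5 largest differences from the other compounds each way. Alternatives were quantile normalisation, a filter on dim probe sets, all probe sets, the 6 arrays alone, trend and robust settings, the interquartile range as a covariate, the other compounds as reference, and leaving out each array.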

Additional observations from a re-analysis of the deposited data

Results flagged for a closer look

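Among the probe sets outside the comparisons, those with several gene symbols or with none, 59 of 13767 passed an adjusted p of 0.05 between clozapine and DMSO when tested with limma, which is 0.429%, against 1.31% of the probe sets with a single symbol. Of the 59, 41 rose and 18 fell, with changes from -1.06 to 0.77. They drew attention as a signal in data that the comparisons above do not use, and no gene is named for them.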

How the results depend on the processing

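Of 93 named probe sets that were called against DMSO, 35 stayed called in all 13 alternatives, 2 (Cxcl16 and Lipg) in the 12 that tested them, and 55 whichever array was left out, while 50 were lost in the model of the 6 arrays alone. The count of calls against DMSO (285) was 72 in the model of the 6 arrays alone and ran from 140 to 217 when an array was left out. The rises (239) were 66 and ran from 117 to 198, and the falls (46) were 6 and ran from 8 to 37. The falls were 125 after quantile normalisation, 74 without dim probe sets, 135 with the interquartile range as a covariate and 118 with the other compounds as reference. The fatty acid list had 3 rises in the 6 arrays alone. The lysosomal list (13) had 1 in the 6 arrays alone, 4 with the other compounds as reference and 4 to 10 when an array was left out. The difference from the other compounds (374) was 619 after quantile normalisation, 603 with the covariate and 140 to 195 when a clozapine array was left out. The cholesterol synthesis list kept 11 to 16 rises in these settings. The model of the 6 arrays has fewer samples; otherwise the cause was not tested.

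No named call reversed. In 12 genes that were not called the sign turned, 19 times in all. With the other compounds as reference the values were -0.14 for Hspb6, -0.076 for Trib3, -0.009 for Vegfa, -0.031 for Ddit3, -0.003 for Hrh1, 0.007 for Hspa5, 0.016 for Dcn, 0.016 for Abca1, 0.063 for Foxd3 and 0.062 for Lef1. Leaving out an array gave -0.021 to 0.14 for Cyp1a1, -0.041 to 0.048 for Hrh1, -0.049 to 0.053 for Drd2 and -0.029 to 0.009 for Hspa5. No paired analysis was possible because the labels give no replicate numbers, and the numbers used here only name the arrays. With 3 arrays per group the smallest change called was 0.15, and the median SE was 0.079.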

Other observations

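Some called genes belong to none of the lists above. Of the largest rises, Ahnak2 had 2 probe sets that both rose, and the one with the larger change measured 7.92, 7.94 and 8.14 on the DMSO arrays and 8.68, 8.74 and 8.69 on the clozapine arrays, a difference of 0.70 ± 0.089 (adjusted p = 3.12e-07). Renbp, an epimerase of amino sugars, measured 9.89, 9.90 and 9.97 on the DMSO arrays and 10.64, 10.50 and 10.68 on the clozapine arrays, a difference of 0.69 ± 0.085 (adjusted p = 2.57e-07). The chemokine Cxcl16 measured 7.70, 7.61 and 7.77 on the DMSO arrays and 8.33, 8.27 and 8.34 on the clozapine arrays, a difference of 0.62 ± 0.097 (adjusted p = 4.29e-05), with 0.94 under loratadine. The others given here were chosen after their values were seen. The chemokine Ccl2 rose by 0.37 ± 0.068 (adjusted p = 0.000643). P2rx7, an ATP-gated channel, rose by 0.48 ± 0.063 (adjusted p = 6.52e-07) and was 0.44 (adjusted p = 1.35e-09) above the other compounds. The clock-linked repressors Bhlhe40 and Bhlhe41 rose by 0.49 ± 0.088 (adjusted p = 0.000434) and 0.45 ± 0.080 (adjusted p = 0.000377), and the metallothionein Mt1 by 0.39 ± 0.083 (adjusted p = 0.00493). In none of these genes did the clozapine and DMSO arrays overlap.

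Falls outside the lists included the zinc finger genes Zfp462 at -0.32 ± 0.069 (adjusted p = 0.00519) and Sall2 at -0.32 ± 0.068 (adjusted p = 0.00493), neither of which was called against the other compounds, with -0.16 (adjusted p = 0.0887) and -0.069 (adjusted p = 0.705). The Zfp462 call was lost in 2 of the 6 analyses that left out an array, and that of Sall2 in 1, with adjusted p of up to 0.0718 (without clozapine 2) and 0.11 (without DMSO 3).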
